A study of Arabidopsis thaliana with 6 samples.

Results

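The genes described are 10 of the Arabidopsis thaliana genes for the main route of auxin synthesis, taken by locus from a table of 27826 loci, of which 27241 could be matched to a RefSeq gene and were tested. They are TAA1 (AT1G70560_at), TAR1 (AT1G23320_at) and TAR2 (AT4G24670_at) of the TAA/TAR family, and YUC1 (AT4G32540_at), YUC3 (AT1G04610_at), YUC4 (AT5G11320_at), YUC8 (AT4G28720_at), YUC9 (AT1G04180_at), YUC10 (AT1G48910_at) and YUC11 (AT1G21430_at) of the YUC family. All 10 were in the table, and none was removed by a filter. RNA was measured on 6 microarrays from embryos at the 16-cell stage, 72 h after flowers were pollinated by hand. The nuclear group is 3 arrays of RNA from nuclei captured with INTACT, a method in which a tagged and biotinylated nuclear envelope protein lets the nuclei of chosen cells be pulled down, here with a marker of the whole embryo made from a pair of components. The cellular group is 3 arrays of total RNA from intact embryos that were dissected with a micromanipulator. Per their labels the samples within a group are biological replicates, and no mutation or chemical treatment is stated for either group. All plants were kept on soil at 22 °C in long days (16 h light, 8 h dark). The promoters behind the nuclear tag and the accession of the plants are not given in the sources used here. The way of isolation and the RNA pool change together between the groups and cannot be told apart.

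Auxin, chiefly indole-3-acetic acid, is made from tryptophan in a pair of steps. Aminotransferases of the TAA/TAR family convert tryptophan to indole-3-pyruvate, and flavin monooxygenases of the YUC family then convert indole-3-pyruvate to auxin, in the step usually taken as rate-limiting. Both families have several members that overlap in function, and mutants that lack several of them fail to form the root and hypocotyl of the embryo. Local synthesis in the apical part of the early embryo and supply from the surrounding maternal seed tissue are both known sources of embryonic auxin.

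Of the 10 genes only TAA1 passed the test between the groups, as lower in nuclear RNA. YUC4 was also lower on every nuclear array than on every cellular array but did not pass. The other 8 genes had fitted changes above 0, between 0.08 for YUC3 and 0.54 for YUC10 on the log2 scale, and none of them passed. Thus 1 of 10 was lower and 0 of 10 were higher (two-sided limma test, threshold 0.05 after Benjamini-Hochberg adjustment), where 4.71% of all genes tested were lower, 1.15% higher and 5.86% changed in either direction. Before adjustment the same threshold was passed by 2 of 10 as lower and 0 as higher, against 13.3% and 10.1% of all genes. The median log2 change of the 10 genes was 0.29, beside 0.13 for all genes, and it was 0.08 after cyclic loess and 0.10 after quantile normalization.

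TAA1, the aminotransferase first identified in this route, had log2 intensities of 2.19, 2.57 and 2.32 on nuclear replicates 1 to 3, against 4.86, 4.48 and 3.41 on cellular replicates 1 to 3. All nuclear arrays lay below all cellular arrays, and cellular replicate 3 was the lowest of its group. The means were 2.36 ± 0.19 in nuclear RNA and 4.25 ± 0.75 in cellular RNA (SD, n = 3 each). Nuclear RNA was thus 3.71-fold lower, with a log2 change of -1.89 (SE 0.39, 95% interval -2.83 to -0.95, limma adjusted p = 0.0455). The nuclear values stood at the 33.1th, 45.8th and 41.7th percentile of their arrays and the cellular values at the 83.8th, 79.7th and 67.4th, so the gene was in the dimmer part of the nuclear arrays and the brighter part of the cellular arrays. A fold against so dim a signal is compressed on this scale, and in bulk RNA fewer cells with a transcript and less transcript per cell cannot be told apart. The call was narrow: it was lost after cyclic loess between arrays (adjusted p = 0.0591) and without nuclear replicate 1 (0.110), 2 (0.102) or 3 (0.0981) or cellular replicate 1 (0.122) or 2 (0.165), while without cellular replicate 3 the change was -2.31 (adjusted p = 0.0107).

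TAR1, a close relative of TAA1 known as paternally expressed in endosperm, had log2 intensities of 2.37, 2.06 and 1.94 on nuclear replicates 1 to 3, against 1.74, 1.76 and 1.93 on cellular replicates 1 to 3. The groups did not overlap, but nuclear replicate 3 and cellular replicate 3 differed by less than the spread within either group. Its log2 change was 0.31 (SE 0.20, 95% interval -0.16 to 0.79, limma adjusted p = 0.370). TAR2, the relative that acts with TAA1 in embryo and root development, had 3.41, 2.43 and 3.83 on the nuclear arrays, against 2.56, 2.67 and 3.13 on the cellular arrays. Its groups overlapped, since nuclear replicate 2 was the lowest of the 6 arrays and the other nuclear replicates were the highest. The log2 change of TAR2 was 0.43 (SE 0.39, 95% interval -0.52 to 1.38, limma adjusted p = 0.519), and it was 0.83 without nuclear replicate 2 (adjusted p = 0.190) and 0.13 without nuclear replicate 3 (adjusted p = 0.844).

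Set against its relatives on the same array, TAA1 minus the mean of TAR1 and TAR2 was -0.70, 0.33 and -0.56 on nuclear replicates 1 to 3, against 2.71, 2.26 and 0.88 on cellular replicates 1 to 3 (log2). This difference was lower on all nuclear than on all cellular arrays. Because probes differ in brightness, its size on one array says nothing of which transcript was more abundant. The comparison was chosen after the values were seen and was not tested.

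**Figure D1:**
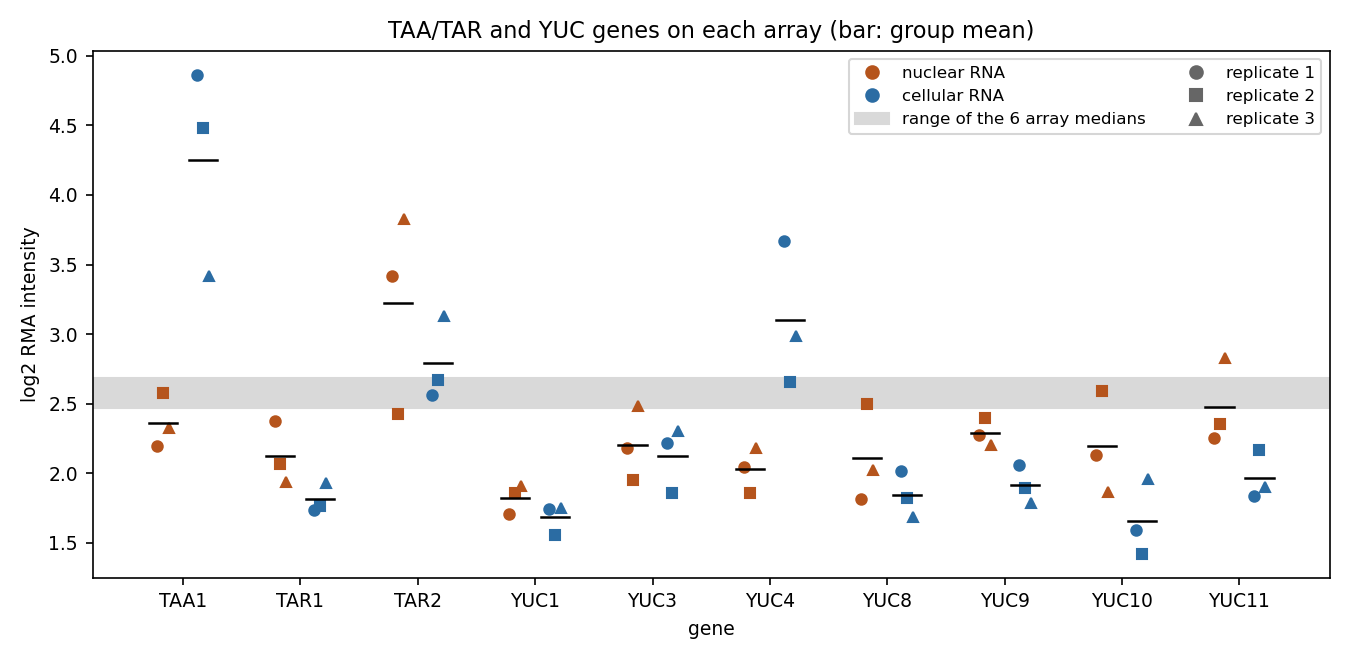
Log2 RMA intensity (y axis) of each of the 10 genes (x axis) on the nuclear arrays (orange, left) and the cellular arrays (blue, right), with a bar at each group mean, a symbol for each replicate, and a grey band from the lowest to the highest array median (2.47 to 2.68). TAA1 and YUC4 have all nuclear points below all cellular points, and 6 of the 10 genes lie below the median of their array on all 6 arrays.

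YUC4, a YUC gene expressed in the apical region of embryos and in young organs, had log2 intensities of 2.04, 1.86 and 2.18 on nuclear replicates 1 to 3, against 3.67, 2.66 and 2.99 on cellular replicates 1 to 3. All nuclear arrays lay below all cellular arrays, of which replicate 1 was the highest. The means were 2.03 ± 0.16 in nuclear RNA and 3.103 ± 0.52 in cellular RNA (SD, n = 3 each), so nuclear RNA was 2.11-fold lower, a fold compressed by nuclear values that all lay below their array medians. The log2 change of -1.08 (SE 0.30, 95% interval -1.79 to -0.36) had an unadjusted p of 0.00990 and did not pass after adjustment (limma adjusted p = 0.0925). It passed in 0 of 13 alternative settings, with adjusted p from 0.0800 to 0.210 and a change from -1.30 to -0.79. On the cellular arrays YUC4 stood at the 70.7th, 53.6th and 59.8th percentile, and on the nuclear arrays at the 24.5th, 11.5th and 35.9th. Set against the mean of the other 6 YUC genes on the same array, chosen after the values were seen and not tested, it was at -0.02, -0.41 and -0.04 on the nuclear arrays, against 1.76, 0.87 and 1.09 on the cellular arrays (log2 differences).

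YUC1, YUC10 and YUC11 act with YUC4 in the embryo: plants that lack all of them do not form a root. YUC1 had log2 intensities of 1.71, 1.86 and 1.90 on nuclear replicates 1 to 3, against 1.74, 1.56 and 1.75 on cellular replicates 1 to 3. The groups overlapped and the change was 0.14 (SE 0.18, 95% interval -0.28 to 0.56, limma adjusted p = 0.639). It lay below 0 after cyclic loess (-0.060) and quantile normalization (-0.031). YUC10, which like TAR1 is known as a paternally expressed gene of the endosperm, had 2.13, 2.59 and 1.86 on the nuclear arrays, against 1.59, 1.42 and 1.96 on the cellular arrays. Nuclear replicate 3 was below cellular replicate 3, so these groups overlapped too, and the change of 0.54 (SE 0.27, 95% interval -0.10 to 1.18) did not pass (limma adjusted p = 0.279). YUC11 had 2.25, 2.35 and 2.83 on the nuclear arrays, against 1.83, 2.17 and 1.90 on the cellular arrays. Its groups did not overlap, with a gap between nuclear replicate 1 and cellular replicate 2 that was smaller than the spread within either group, and the change was 0.51 (SE 0.23, 95% interval -0.05 to 1.07, limma adjusted p = 0.245).

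YUC3, YUC8 and YUC9 are studied mainly in roots, seedlings and leaves, where YUC8 and YUC9 respond to shade, warmth or wounding. YUC3 had log2 intensities of 2.18, 1.95 and 2.48 on nuclear replicates 1 to 3, against 2.22, 1.86 and 2.30 on cellular replicates 1 to 3. These groups overlapped almost fully, and the change of 0.08 (SE 0.23, 95% interval -0.47 to 0.63, limma adjusted p = 0.849) lay below 0 after cyclic loess (-0.13), after quantile normalization (-0.11) and without nuclear replicate 3 (-0.06) or cellular replicate 2 (-0.06). YUC8 had 1.81, 2.49 and 2.02 on the nuclear arrays, against 2.02, 1.82 and 1.68 on the cellular arrays. Nuclear replicate 2 stood above the other 5 arrays, which lay close together, and the change was 0.27 (SE 0.24, 95% interval -0.31 to 0.85, limma adjusted p = 0.513). YUC9 had 2.27, 2.39 and 2.20 on the nuclear arrays, against 2.06, 1.89 and 1.79 on the cellular arrays. All nuclear arrays of YUC9 lay above all cellular arrays, by a change of 0.38 (SE 0.18, 95% interval -0.05 to 0.81) that did not pass (limma adjusted p = 0.262).

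**Figure D2:**
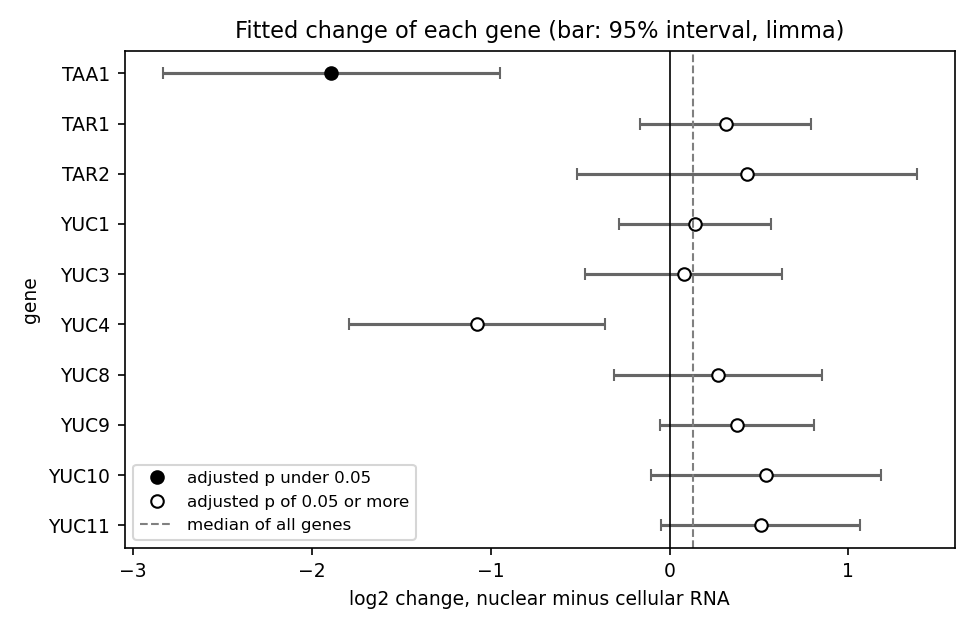
Fitted log2 change, nuclear minus cellular RNA (x axis), of each gene (y axis) with its 95% limma interval, filled where adjusted p was under 0.05, and a dashed line at the median of all genes (0.13). The intervals of TAA1 and YUC4 lie wholly below 0, and those of the other 8 genes include 0.

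Across the set, 5 of 10 genes had groups that did not overlap. Nuclear arrays were all higher for 3 (TAR1, YUC9 and YUC11) and all lower for 2 (TAA1 and YUC4), where 18.6% of all genes had all nuclear arrays above and 14.4% all nuclear arrays below. Of the 9 genes that did not pass, 5 had a 95% interval that stayed within a 2-fold change in both directions: TAR1, YUC1, YUC3, YUC8 and YUC9. The intervals of TAR2, YUC10 and YUC11 allowed rises of more than 2-fold, and that of YUC4 a fall of more than 2-fold. TAR1, YUC1, YUC3, YUC8, YUC9 and YUC10 lay below the array median on all 6 arrays, YUC11 was above it on 1 array, TAA1 and YUC4 on 3 each (the cellular arrays), and TAR2 on 5. There are no detection calls, so for the 6 genes below the median throughout a difference in the transcript may not be detectable at this signal. Fitted changes lay above 0 for 8 of the 10, beside 60.9% of all genes. After cyclic loess, which took the median of all genes to 0.02, these were 6 of 10 and 52.2%, and after quantile normalization, which took it to 0.04, 6 of 10 and 54.2%. Relative to the median of all genes as deposited, the changes of TAA1 and YUC4 were -2.02 and -1.21 and that of YUC10 was 0.40.

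The labelled tissue was checked with markers of the embryo and of the seed tissues around it. Of 20 embryo markers, 17 lay above the array median on each cellular array and 11, 13 and 9 on nuclear replicates 1 to 3, and 9 of 20 were lower in nuclear RNA and 0 higher (limma, adjusted p under 0.05), beside 4.71% and 1.15% of all genes. Without cellular replicate 2 the lower ones were 5 of 20, while over all 27241 genes the lower calls fell from 1284 to 254. Their summed linear intensity ranged over 257 to 329 on the nuclear arrays, against 980 to 2190 on the cellular arrays. The defining marker WOX2, a homeobox gene of the apical lineage, was at 3.11, 2.84 and 2.24 on the nuclear arrays, against 8.71, 8.10 and 6.10 on the cellular arrays (log2). WOX2 was chosen after the values were seen and had the largest change of the 20 (-4.91). Embryo markers were not all dim in nuclear RNA. LEC2 was at 2.99, 2.88 and 2.31 on nuclear replicates 1 to 3, while PDF2 was at 6.20, 5.41 and 6.46. MP was at 5.76, 5.99 and 5.23 and ATML1 at 6.41, 5.12 and 4.73 on the same arrays. These genes were also chosen after the values were seen. Of the 20 markers, 16 had all nuclear arrays below all cellular arrays, beside 14.4% of all genes. Fitted changes lay above 0 for CUC1 (0.16), TMO7 (0.46) and L1L (0.22). The summed intensity of 20 seed coat markers ranged over 2932 to 5624 on the nuclear arrays, against 545 to 3660 on the cellular arrays. Of the 20, 0 passed the test and 4 were higher before adjustment, beside 10.1% of all genes. Fitted changes lay above 0 for 18 and below 0 for MUM2 (-0.56) and MUM4 (-0.25). Leaving out cellular replicate 3, the cellular array with the highest sum, lowers the cellular seed coat level by construction. In that setting 2 of the 20 were called higher, beside 419 of all 27241 genes. They were TTG2 (2.20, limma adjusted p = 0.0414) and SBT1.7 (2.44, adjusted p = 0.0369), where the values are log2 changes. Of 15 endosperm markers at most 4 lay above the median of any array, with summed intensities of 56 to 102 on the nuclear arrays, against 52 to 78 on the cellular arrays.

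TAA1, YUC4 and the embryo marker median were lower on all nuclear than on all cellular arrays, as were 14.4% of all genes. The embryo marker median was 2.67, 2.87 and 2.45 on nuclear replicates 1 to 3, against 6.65, 5.83 and 5.21 on cellular replicates 1 to 3. TAA1 took the same order within the cellular group. Within the nuclear group the orders differed: that median was lowest on replicate 3, TAA1 on replicate 1 and YUC4 on replicate 2. The seed coat median was 6.63, 5.62 and 5.69 on the nuclear arrays, against 3.12, 4.87 and 5.59 on the cellular arrays, and was thus highest in the cellular group on replicate 3, where TAA1 was lowest. YUC4 was highest on cellular replicate 1, where the seed coat median was lowest, but lower on replicate 2 than on replicate 3. The part of these tissues in the changes of TAA1 and YUC4 was not tested.

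**Figure D3:**
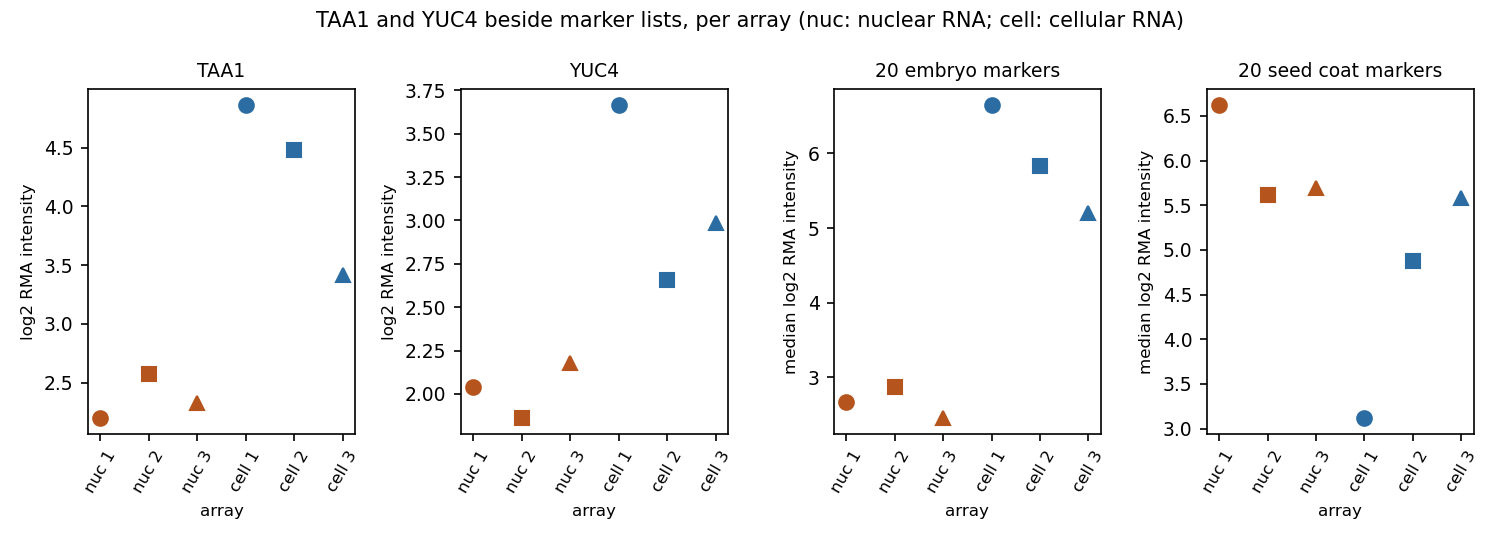
Log2 RMA intensity of TAA1 and YUC4, and the median log2 RMA intensity of 20 embryo and of 20 seed coat markers (y axes, each with its own range), on each array (x axis: nuclear in orange, cellular in blue). TAA1, YUC4 and the embryo markers are lower on all nuclear than on all cellular arrays, and the seed coat markers are higher on all nuclear arrays, with cellular replicate 3 at 5.59 close to nuclear replicate 2 at 5.62.

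The genes most like TAA1 over the 6 arrays, among 10181 whose SD over the arrays was at least 0.5 times its own, were AT1G62410 (Pearson r = 0.9986), AT1G32190 (r = 0.9977) and AT2G28130 (r = 0.9973). Their log2 changes were -1.70, -2.79 and -1.96, and AT2G28130 alone of these passed the test (limma adjusted p = 0.0331). For YUC4, among 17180 such genes, they were AT5G58450 (r = 0.9955), AT4G16220 (r = 0.9937) and AT2G04845 (r = 0.9931), with log2 changes of -1.41, -0.61 and -1.46, none of which passed (adjusted p = 0.0655 to 0.144). These correlations describe 6 arrays that also share their group, and with so many genes searched some come close to 1.

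The other 6 genes of the families were YUC2, YUC5, YUC6, YUC7 and the TAA1 relatives TAR3 (AT1G34040) and TAR4 (AT1G34060). None of them passed, beside 4.71% lower and 1.15% higher of all genes. All 6 had fitted changes above 0, beside 60.9% of all genes. This was also so after cyclic loess and quantile normalization, while without nuclear replicate 1 it held for 5 of the 6. Their median change was 0.49. YUC7 had the lowest p of them, with log2 intensities of 3.15, 3.75 and 2.52 on nuclear replicates 1 to 3, against 2.15, 1.69 and 2.28 on cellular replicates 1 to 3. Its groups did not overlap, and the change was 1.10 (SE 0.35, limma adjusted p = 0.136). YUC6 had 2.99, 2.48 and 3.18, against 1.74, 1.90 and 2.47, also without overlap, and a change of 0.85 (SE 0.29, adjusted p = 0.154). YUC2 was at 1.90, 1.99 and 1.85 on the nuclear arrays, against 1.73, 1.67 and 1.58 on the cellular arrays, and YUC5 at 2.62, 2.53 and 2.23, against 2.11, 2.04 and 2.09. Those groups also did not overlap, while those of TAR3 (adjusted p = 0.322) and TAR4 (adjusted p = 0.573) did. Thus 4 of the 6 had all nuclear arrays above all cellular arrays, beside 18.6% of all genes.

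Tryptophan, the substrate of the route, is made in plastids from chorismate. Of 13 listed genes of its synthesis 11 were measured, and PAI1 and PAI2 were not analysed here. All 11 had fitted changes below 0, with a median of -0.49, where 60.9% of all genes were above 0. Of the 11, 1 was lower and 0 higher, beside 4.71% and 1.15% of all genes. The number below 0 was 10 after cyclic loess and after quantile normalization and 8 without nuclear replicate 3. In those settings 52.2%, 54.2% and 60.2% of all genes were above 0. The median of the 11 was -0.31 without nuclear replicate 1, -0.32 without nuclear replicate 3 and -0.22 without cellular replicate 1. The 1 lower call was TSB1, the main beta subunit of tryptophan synthase, which makes tryptophan from indole and serine. It had log2 intensities of 3.72, 3.61 and 3.93 on nuclear replicates 1 to 3, against 5.46, 5.73 and 5.34 on cellular replicates 1 to 3. The groups were far apart beside their own spread: nuclear RNA was 3.38-fold lower (log2 change -1.76, SE 0.20, limma adjusted p = 0.00971), a call lost without cellular replicate 2 (change -1.65, adjusted p = 0.0529). Between the groups TSB1, like TAA1, was lower where the embryo marker median was lower and the seed coat marker median higher. Within the groups TSB1 was highest on cellular replicate 2 and nuclear replicate 3. The embryo marker median was highest on cellular replicate 1 and nuclear replicate 2. The part of those tissues was not tested. Of 10 genes of other proposed routes to auxin, such as those through indole-3-acetaldoxime and nitrilases, none passed, beside 4.71% lower and 1.15% higher of all genes. Before adjustment 0 of them passed the limma test at 0.05, beside 13.3% lower and 10.1% higher of all genes. Their median change was 0.05. That median lay below 0 after cyclic loess (-0.06) and quantile normalization (-0.00034) and without nuclear replicate 3 (-0.12) or cellular replicate 1 (-0.02). The lowest p there was that of CYP79B3, a cytochrome P450 that makes indole-3-acetaldoxime, with a change of 0.36 (SE 0.24, adjusted p = 0.399).

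Auxin is inactivated mainly by conjugation to amino acids through GH3 enzymes, by oxidation and by glucosylation. For 14 such genes the median change was 0.17, or -0.02 after cyclic loess. Of these 14, 1 was higher and 0 lower, beside 1.15% and 4.71% of all genes. The 1 was GH3.9, a GH3 gene, with log2 intensities of 3.35, 3.04 and 3.06 on nuclear replicates 1 to 3, against 2.01, 1.90 and 1.72 on cellular replicates 1 to 3. Nuclear RNA was 2.42-fold higher for GH3.9 (log2 change 1.27, SE 0.19, limma adjusted p = 0.0190), and the call was lost without cellular replicate 1 (adjusted p = 0.0653) or 2 (adjusted p = 0.0862). Its cellular values all lay below their array medians of 2.47 to 2.53, so that fold is against a signal not shown to be above background. Of 7 hydrolases that free auxin from its amino acid conjugates none passed, beside 1.15% higher and 4.71% lower of all genes. Their median change was 0.10, or 0.52 after cyclic loess and 0.03 to 0.44 with a single array left out. ILR1 had the lowest p of these, with 5.005, 5.17 and 4.65 on the nuclear arrays, against 3.49, 4.003 and 4.49 on the cellular arrays, and a change of 0.95 (SE 0.31, adjusted p = 0.134).

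For 11 transcription factors known to act on TAA or YUC genes the median change was 0.02. It was -0.19 after cyclic loess and -0.05 to 0.16 with a single array left out. Of these 11, 1 was lower and 0 higher, beside 4.71% and 1.15% of all genes. The 1 was LEC2, a B3-domain regulator of embryo identity that activates YUC4 and is also on the embryo marker list. LEC2 had log2 intensities of 2.99, 2.88 and 2.31 on nuclear replicates 1 to 3, against 6.76, 6.88 and 5.67 on cellular replicates 1 to 3. Nuclear RNA held 13.1-fold less of it (a log2 change of -3.71, SE 0.39, limma adjusted p = 0.00801). STY1, which also activates YUC4, did not pass: it had 2.26, 2.10 and 1.74, against 2.87, 2.53 and 2.15, with overlapping groups (adjusted p = 0.313). Among 6 auxin receptors of the TIR1/AFB family 1 was higher and 0 lower, beside 1.15% and 4.71% of all genes. The median change of the 6 was -0.10, or 0.11 after cyclic loess and -0.28 to 0.10 with a single array left out. AFB4 had 5.74, 5.09 and 6.25 on the nuclear arrays, against 3.66, 3.87 and 4.27 on the cellular arrays. Nuclear RNA held 3.39-fold more of it (a log2 change of 1.76, SE 0.34, limma adjusted p = 0.0385), a call lost without nuclear replicate 1 (0.0949) or 3 (0.0682) or cellular replicate 1 (0.131) or 2 (0.143).

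Aux/IAA proteins repress auxin response, and many of their genes are themselves induced by auxin. Of 29 Aux/IAA genes 1 was lower and 0 higher, beside 4.71% and 1.15% of all genes. Their median change was 0.13, as for all genes. After cyclic loess the 1 call was instead IAA13 as higher (log2 change 1.23, limma adjusted p = 0.0386), and the list's median was -0.03, beside 0.02 for all genes. IAA18, whose dominant mutants are defective in cotyledon and root formation, had log2 intensities of 2.12, 2.40 and 2.59 on nuclear replicates 1 to 3, against 3.74, 4.91 and 3.71 on cellular replicates 1 to 3. Nuclear RNA held 3.37-fold less of it (a log2 change of -1.75, SE 0.37, limma adjusted p = 0.0480). That call was lost after cyclic loess (adjusted p = 0.0626) and whichever single array was left out: without nuclear replicate 1 (0.115), 2 (0.122) or 3 (0.0835) or cellular replicate 1 (0.0970), 2 (0.0803) or 3 (0.0502). GH3.9, LEC2, AFB4 and IAA18 were measured on the same arrays, between which the embryo and seed coat markers differed as given above, and the part of those tissues in their changes was not tested.

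**Figure D4:**
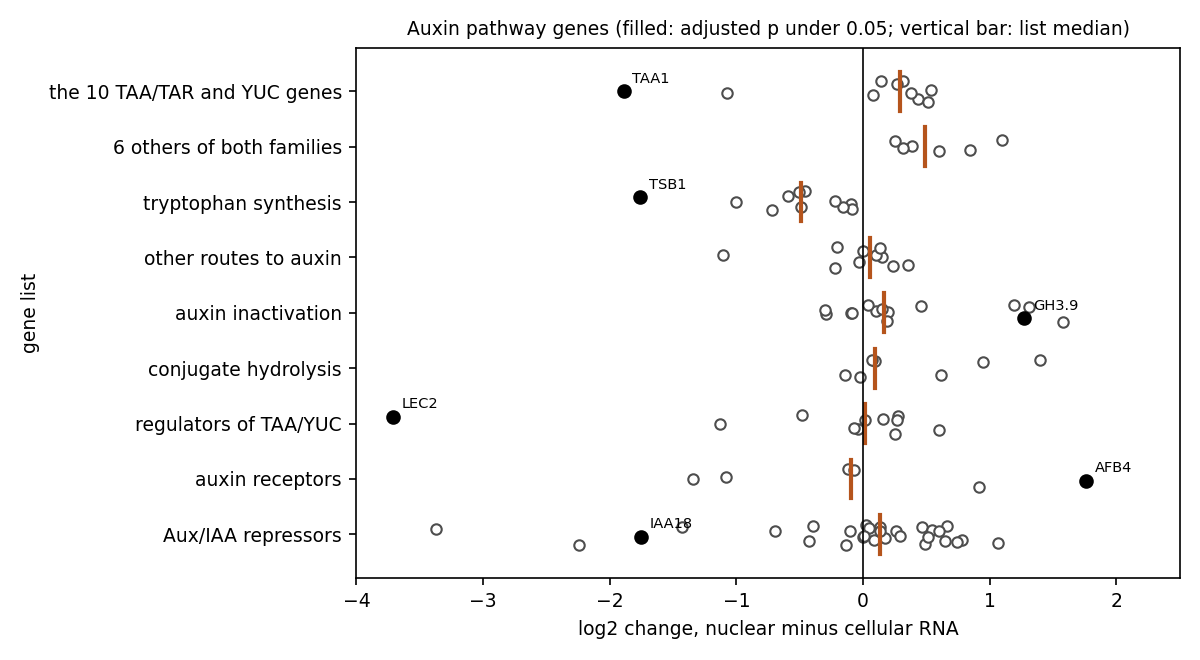
Log2 change, nuclear minus cellular RNA (x axis), of each measured gene in 9 lists of auxin pathway genes (y axis), filled and named where adjusted p was under 0.05, with an orange bar at each list's median. TAA1, TSB1, LEC2 and IAA18 are lower and GH3.9 and AFB4 higher, and each list that has a call has 1.

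**Figure D5:**
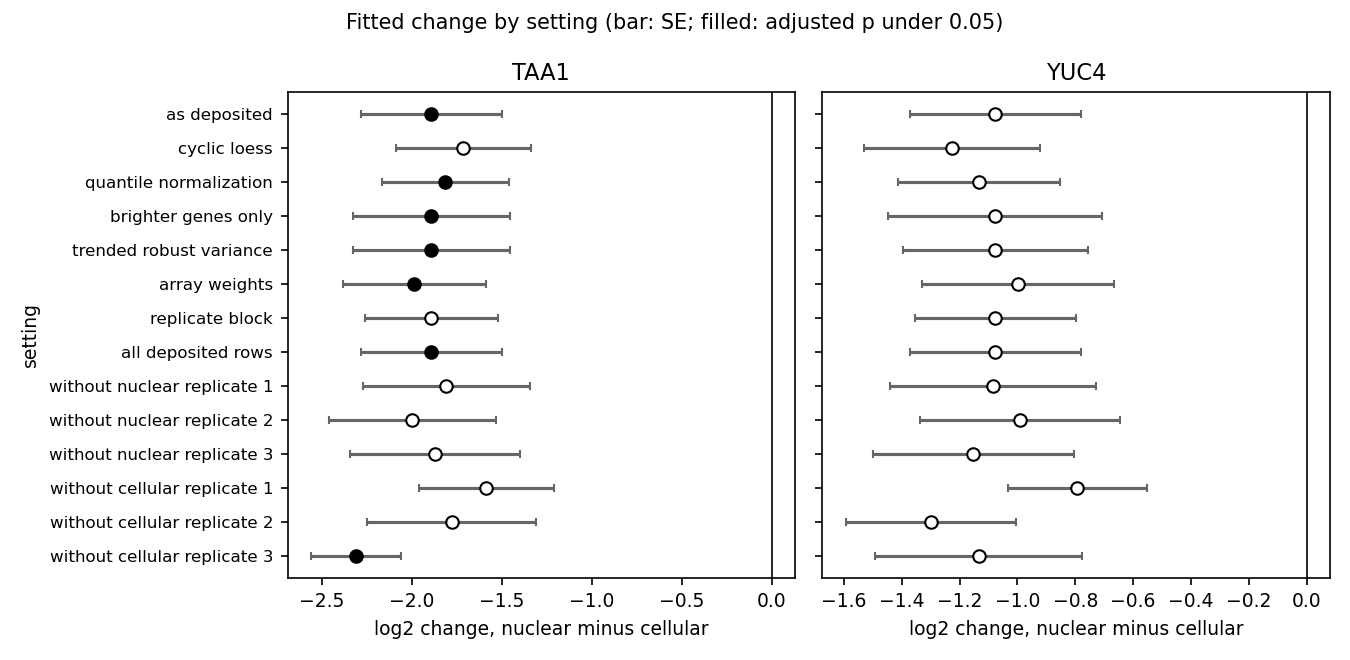
Log2 change, nuclear minus cellular RNA, of TAA1 and YUC4 (x axes) as deposited and in 13 alternative settings (y axis), with the SE as bars and filled points where adjusted p was under 0.05. TAA1 lies below 0 throughout and passes in 6 of the 13 alternatives, and YUC4 lies below 0 throughout and passes in none. Among the 6 is the setting with the brighter genes alone, which lends no support. TAA1 entered it only through its cellular mean (4.25, against 2.36 in nuclear RNA and a limit of 2.566). The 1.5-fold limit, under which TAA1 was not called, is not drawn.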

How the data were processed

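The deposited intensity values, 1 row per locus, were made with RMA, per the submitters' processing notes. The version of RMA, the kind of array and how probes were grouped are not given in the sources used here. Per the labels, RNA was extracted with TRIzol and 4.25 ug of biotinylated cDNA was amplified for each array. Since the values are linear, their log2 was used, with no filter on dim genes and no further normalization. The 585 loci without a RefSeq match (assembly TAIR10.1, used for names alone) were left out. Coordinates are left out because the sources name no build, and no sequences are shown. In 83 sets, 172 loci share all values with another, and none of the 10 genes is among them. The test was limma 3.58.1 under R 4.3.3 (lmFit, then eBayes, two-sided, with 4 residual and 2.33 prior degrees of freedom per gene), tested on simulated data. P-values were adjusted over all 27241 genes. The number of arrays limits the precision, and p-values measure the spread between these samples, which the labels do not tie to separate plants. The genes and lists were chosen with earlier results of these data known. All genes of both families are named, and from other lists those that passed, or the 1 with the lowest p. STY1, WOX2, PDF2, MP, ATML1 and those under the other observations were chosen after their values were seen. Alternatives were cyclic loess, quantile normalization, the brighter genes alone, all deposited loci, a replicate block, array weights, a trended and robust variance, a limit of 1.5-fold, and each array left out.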

Additional observations from a re-analysis of the deposited data

How the results depend on the processing

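The single lower call among the 10 genes, TAA1, became 0 after cyclic loess, with the replicate block and under the 1.5-fold limit, and was 0 to 1 with a single array left out. Higher calls among them were 0 under every alternative run. TAA1 kept its direction in 13 of 13 alternatives, with changes from -2.31 to -1.58 and adjusted p from 0.0107 to 0.165. The change of YUC1 was -0.060 after cyclic loess and -0.031 after quantile normalization, and that of YUC3 was -0.13 and -0.11 and ranged from -0.059 to 0.20 with a single array left out. Over all genes, 313 higher and 1284 lower calls became 489 and 846 after cyclic loess, 118 and 571 with the replicate block, 73 and 535 under the 1.5-fold limit, and 28 to 419 and 254 to 1688 with a single array left out. The cause of these shifts was not tested. Same-numbered nuclear and cellular arrays had r = -0.05, -0.06 and -0.01 over all genes, after each group mean was taken off. Arrays of unlike number had r from -0.03 to 0.08. With 3 arrays per group these values cannot show whether same-numbered samples share a batch, and the labels do not say. With the replicate block the limma adjusted p were 0.0864 for TAA1, 0.0517 for TSB1, 0.0676 for GH3.9, 0.0600 for AFB4 and 0.0864 for IAA18. AFB4 also did not pass with the trended robust variance (adjusted p = 0.0605), nor IAA18 with array weights (adjusted p = 0.0511). Signals below the array medians limit what can be seen of most YUC genes.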

Other observations

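Some auxin response genes differed between groups whose arrays did not overlap, without passing the test on all 6 arrays. IAA30, IAA1 and AFB2 were chosen after their values were seen, and all of them were lower in nuclear RNA. Other genes went the other way. Of the 29 Aux/IAA genes, 5 had all nuclear arrays above all cellular arrays and 4 all below. For the 6 receptors these were 2 and 1, beside 18.6% and 14.4% of all genes. Among those above without passing were IAA13 (log2 change 0.74) and AFB1 (0.91). IAA30, an Aux/IAA gene known as a target of LEC2, had log2 intensities of 2.72, 1.79 and 4.74 on nuclear replicates 1 to 3, against 6.35, 6.18 and 6.84 on cellular replicates 1 to 3. All nuclear arrays lay below all cellular arrays, with nuclear replicate 3 well above the others of its group, and the log2 change was -3.37 (SE 0.73, limma adjusted p = 0.0515). It passed over the brighter genes (adjusted p = 0.0208), with the trended robust variance (0.0300), with array weights (0.0351) and without nuclear replicate 3 (-4.20, adjusted p = 0.0155). IAA30 did not pass after cyclic loess or quantile normalization, with the replicate block, over all deposited loci or with any other array left out. IAA1, an early auxin-induced gene, had 2.60, 4.90 and 3.03 on the nuclear arrays, against 6.09, 5.84 and 5.31 on the cellular arrays. Its log2 change was -2.24 (SE 0.61, adjusted p = 0.0903). IAA1 passed over the brighter genes (adjusted p = 0.0487) and without nuclear replicate 2 (adjusted p = 0.0285), and in no other setting named for IAA30. The receptor gene AFB2 had 5.39, 4.30 and 4.45 on the nuclear arrays, against 6.36, 6.15 and 5.66 on the cellular arrays. Its log2 change was -1.35 (SE 0.36, adjusted p = 0.0846). AFB2 passed without nuclear replicate 1 (adjusted p = 0.0448) and in no other setting named for IAA30. AFB4 of the same family was higher in nuclear RNA. The difference between the changes of AFB2 and AFB4 was not tested.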
